A study of Mus musculus with 18 samples.

Results

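The 10 antioxidant defense genes examined were Nqo1, Slc7a11, Gclc, Gclm, Gsr, Txnrd1, Srxn1, Prdx1, Sod2 and Cat, chosen by gene symbol from the 53465 genes of the deposited count table. Each symbol matched a single gene, and all 10 passed the filter on low counts in every comparison. The 18 libraries came from microglia and macrophages sorted from the same 9 mice after spinal cord injury (SCI), with 3 mice per treatment. The mice were adult C57BL/6J females of 8 to 10 weeks with a contusion of the cord, which all groups shared, so that no uninjured animal entered the comparisons. At 48 h after injury the lesion was injected with PBS (mice 1, 2 and 3), with 100 ng of recombinant interleukin 13 (rIL-13, mice 5, 6 and 7) or with 100 ng of recombinant interleukin 4 (rIL-4, mice 8, 9 and 10), and cells were collected 24 h later. Microglia were sorted as CD45low, CD11b+, F4/80+ cells and macrophages as CD45high, CD11b+, F4/80+ cells, so the split between them rests on the amount of surface CD45.

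These genes protect cells from reactive oxygen species, which myeloid cells themselves release in injured tissue. Superoxide is turned into hydrogen peroxide by superoxide dismutases such as Sod2, and hydrogen peroxide is removed by catalase (Cat), by peroxiredoxins and by glutathione peroxidases. Glutathione and the thioredoxin that serves the peroxiredoxins are returned to their reduced form with electrons from NADPH, through Gsr and Txnrd1. Several of the genes, among them Nqo1, Gclm, Gclc, Txnrd1, Srxn1, Slc7a11 and Prdx1, are textbook targets of the transcription factor NRF2 (gene Nfe2l2), which binds antioxidant response elements together with small MAF proteins. IL-4 and IL-13 act through receptors that share the IL-4R alpha chain and drive the alternative activation of macrophages.

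The libraries held 35961305 to 45849829 estimated counts each. The summed level of 10 microglia markers was 3031 to 13088 CPM (counts scaled to a common library total) in microglia and 451 to 4104 CPM in macrophages, and that of 10 monocyte and macrophage markers was 2659 to 6457 CPM in microglia and 11401 to 21973 CPM in macrophages. The microglia libraries also held markers of fibroblasts and pericytes (10 genes, 249 to 9745 CPM, against 2.67 to 24.5 CPM in macrophages) and of endothelium (8 genes, 1077 to 3759 CPM, against 43.1 to 389 CPM). Neutrophil markers (10 genes) summed to 254 to 2755 CPM in macrophages and to 104 to 357 CPM in microglia. Mitochondrially encoded transcripts stood at 63545 to 121915 CPM in rIL-4 microglia, 32771 to 35285 CPM in rIL-13 microglia and 21781 to 30064 CPM in PBS microglia. These are bulk samples, in which fewer cells of a type and less RNA per cell cannot be told apart.

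In macrophages, Prdx1, Gclm and Nqo1 were lower with rIL-4 than with PBS, by factors of 1.99, 2.1 and 3.01, where 14.0% of all genes tested passed in either direction. For 7 of the 10 genes every rIL-4 library lay below every PBS library, where 34.1% of all genes showed no overlap in either direction. With rIL-13 no member passed the test (4.19% of all genes did), and for 8 of the 10 every library lay below PBS (24.3% of all genes showed no overlap). In microglia no member passed with either cytokine, where 2.22% of all genes passed with rIL-4 and 0.366% with rIL-13. Under PBS, Prdx1, Gclm, Gsr, Txnrd1 and Sod2 were lower in microglia than in macrophages, where 40.9% of all genes passed.

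The levels of the members relative to each other were compared as CPM per kilobase of exon, the only scale used here between genes. The length was that of all annotated exons of a gene merged, 1553 bases for Nqo1 and 13922 for Slc7a11. The order between genes depends on these lengths. Prdx1, the abundant peroxiredoxin of the cytosol, had the highest level in all 6 groups, from 202 ± 9.40 in rIL-4 microglia to 433 ± 68.3 in PBS macrophages (mean ± SD, n = 3 libraries here and throughout). Cat and Gsr followed, except in rIL-4 microglia, where Txnrd1 stood above Gsr with overlapping libraries. Their levels were 25.4 ± 4.33 to 48.0 ± 13.3 for Cat and 10.6 ± 3.83 to 47.1 ± 10.8 for Gsr. In all 3 macrophage groups the libraries of Gsr and Cat overlapped in level, so that their order there was not settled.

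Txnrd1, Sod2, Gclm and Srxn1 held the middle, between 5.70 ± 1.37 for Srxn1 in rIL-4 microglia and 21.8 ± 2.93 for Txnrd1 in PBS macrophages. The lowest levels were those of Gclc, Slc7a11 and Nqo1, which ranged from 0.35 ± 0.0667 for Nqo1 in rIL-4 macrophages to 3.58 ± 2.52 for Gclc in PBS microglia. In PBS microglia and rIL-13 microglia, each gene from Gsr downward overlapped with the next in the order. In PBS macrophages Slc7a11, Gclc and Nqo1 did not overlap, at 3.32 ± 0.698, 2.36 ± 0.433 and 1.09 ± 0.345.

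**Figure D1:**
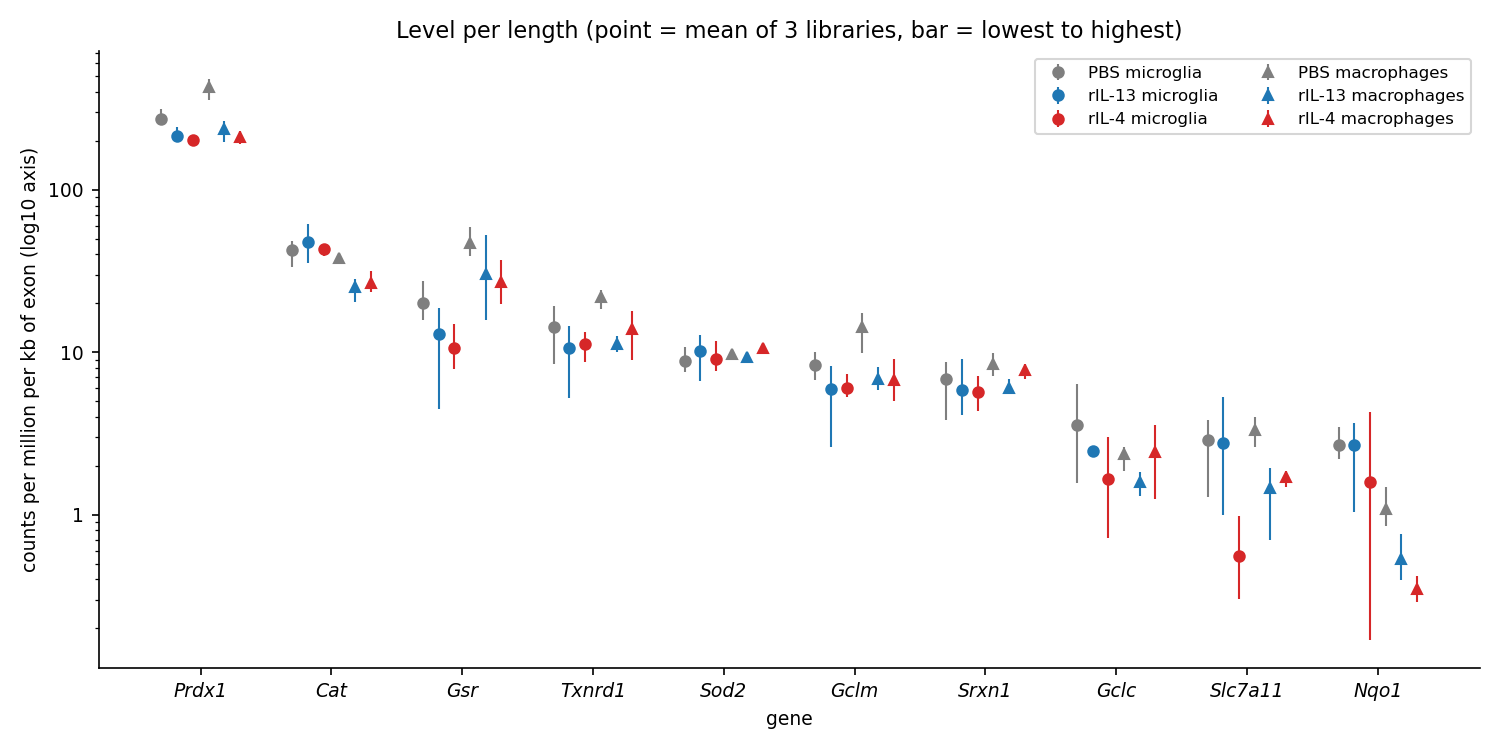
Level of each member as CPM per kilobase of exon on a log10 axis, in order of the mean over groups. Points are means of 3 libraries, circles for microglia and triangles for macrophages, and bars run from the lowest to the highest library. Prdx1 stands highest in every group and Nqo1 in rIL-4 microglia has the longest bar.

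Because Prdx1, Gclm and Nqo1 carry the calls of the cytokine comparison, the 250 bases before their RefSeq start sites (GRCm38.p6) are shown, 5′ to 3′ on the strand of the gene. Capitals mark a match to TGACNNNGC, the core letters of an antioxidant response element, searched on both strands. A match on the opposite strand reads here as the reverse complement of these letters.

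Prdx1, chr4:116685349-116685598, plus strand: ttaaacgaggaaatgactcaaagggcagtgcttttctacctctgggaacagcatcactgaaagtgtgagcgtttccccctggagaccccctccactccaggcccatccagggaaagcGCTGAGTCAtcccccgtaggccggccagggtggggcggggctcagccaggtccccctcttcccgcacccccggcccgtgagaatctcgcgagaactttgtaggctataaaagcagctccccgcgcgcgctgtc

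Gclm, chr3:122245307-122245556, plus strand: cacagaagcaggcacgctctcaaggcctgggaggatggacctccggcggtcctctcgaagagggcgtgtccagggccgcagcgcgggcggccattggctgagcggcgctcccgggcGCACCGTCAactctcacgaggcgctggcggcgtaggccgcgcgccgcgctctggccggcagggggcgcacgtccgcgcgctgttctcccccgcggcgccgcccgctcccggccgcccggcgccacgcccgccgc

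Nqo1, chr8:107403206-107403455, minus strand: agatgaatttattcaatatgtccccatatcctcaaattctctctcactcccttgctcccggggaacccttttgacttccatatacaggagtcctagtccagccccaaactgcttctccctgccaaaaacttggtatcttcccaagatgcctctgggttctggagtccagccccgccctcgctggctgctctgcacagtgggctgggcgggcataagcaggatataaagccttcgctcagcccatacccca

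Prdx1 and Gclm each held the letters once, on the opposite strand and starting 133 and 134 bases before the start site. The Nqo1 stretch held none. In windows of 300 bases (250 before and 50 after the start), RefSeq promoters were at hand for 8 of the 10 members, 10 promoters in all, and 4 of these held the letters, namely those of Gclm, Prdx1, Srxn1 and 1 of 3 for Txnrd1. The share among all 32851 promoters of that length was 12.4%. The letters TGANTCA, which AP-1 factors bind, occurred in 7.81% of all promoters and 2 times each in those of Srxn1 and Prdx1. In Prdx1 1 of these matches lies within the capitals shown. A match of letters is a description of the sequence and not a measured binding site.

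The question of the treated groups was how each cytokine shifts these genes from their level after SCI with PBS. Values per library are normalized counts, that is estimated counts divided by a size factor for the library, and tests are edgeR quasi-likelihood tests with p adjusted over all genes tested by the Benjamini-Hochberg method, with 0.05 as the threshold. In macrophages with rIL-4, 3 of the 10 members passed, all lower (Prdx1, Gclm, Nqo1), where 14.0% of 13606 genes passed in either direction and 7.20% passed as lower. The median log2 fold change of the members was -0.70, against 0.02 over all genes tested. Groups did not overlap for 7 of the members, where 34.1% of all genes showed no overlap.

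Prdx1, which reduces hydrogen peroxide with the help of thioredoxin, had normalized counts of 45042, 62994 and 58818 in the PBS macrophages, 26342, 24123 and 30397 in the rIL-4 macrophages and 37151, 27029 and 33210.0 in the rIL-13 macrophages. Every cytokine library lay below every PBS library, and the rIL-4 and rIL-13 libraries overlapped. With rIL-4 the log2 fold change was -0.99 ± 0.19 (SE) with an adjusted p of 0.00601 by edgeR. With rIL-13 it was -0.75 ± 0.18 with an adjusted p of 0.0515 by edgeR, just short of the threshold. It passed in all 4 alternative fits (DESeq2, DESeq2 size factors, no filter on low counts and all 18 libraries in one model; adjusted p 0.00469 to 0.0493) and in 1 of the 9 edgeR fits that left out 1 library (0.046 to 0.186). The Prdx1 call with rIL-4 held under every alternative fit and with every library left out in turn.

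Txnrd1, the cytosolic thioredoxin reductase, stood at 5476, 6895 and 7193 in PBS macrophages. It was at 4149, 5297 and 2786 after rIL-4 and at 3272, 3648 and 3823 after rIL-13. All 6 cytokine libraries lay below the PBS libraries. The log2 fold changes were -0.63 ± 0.21 (edgeR adjusted p 0.0771) with rIL-4 and -0.84 ± 0.21 (edgeR adjusted p 0.0576) with rIL-13. Srxn1, the sulfiredoxin that repairs overoxidized peroxiredoxins, was at 842, 1011 and 1175 with PBS, 965, 942 and 844 with rIL-4 and 727, 734 and 829.8 with rIL-13. Only the rIL-13 libraries lay wholly below PBS, at a log2 fold change of -0.37 ± 0.16 (edgeR adjusted p 0.237), and with rIL-4 the value was -0.09 ± 0.15.

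Of the genes of glutathione synthesis, Gclm, the modifier subunit of glutamate-cysteine ligase, had normalized counts of 2599, 4728 and 4125 in PBS macrophages, 1539.8, 2367 and 1375 in rIL-4 macrophages and 1707, 2299 and 1749 in rIL-13 macrophages. Both cytokine groups lay below all PBS libraries. The log2 fold change was -1.07 ± 0.26 with rIL-4 (edgeR adjusted p 0.0222) and -0.97 ± 0.26 with rIL-13 (edgeR adjusted p 0.0714). The rIL-4 call was kept in 5 of the 9 fits that left out 1 library, and was lost in 4: the adjusted p was 0.0865 without PBS replicate 2, 0.0827 without PBS replicate 3, 0.0762 without rIL-4 replicate 8 and 0.0915 without rIL-4 replicate 10. The exons of Gclm share 296 bases with Gm17494 on the opposite strand and 244 with the pseudogene Gm6061 on its own strand, and the libraries carry no strand, so reads from these stretches cannot be told apart.

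Gclc, the catalytic subunit of the same ligase, was at 409, 299.9 and 413 in PBS macrophages, 542, 196 and 407 with rIL-4 and 289.7, 221 and 295 with rIL-13. The rIL-4 libraries spanned the PBS range on both sides, and the rIL-13 libraries lay below it. Its log2 fold changes were 0.08 ± 0.32 and -0.45 ± 0.33, neither past the test. Slc7a11, the cystine importer that supplies cysteine for glutathione, was at 2329, 1983 and 1529.6 with PBS, 1001, 1072 and 896 with rIL-4 and 452, 1208 and 1055 with rIL-13. Both cytokine groups lay below PBS, at log2 fold changes of -0.92 ± 0.30 (edgeR adjusted p 0.0688) and -1.08 ± 0.30 (edgeR adjusted p 0.0829). Gsr, which reduces oxidized glutathione, was at 4473, 7003 and 4976 with PBS, 2629, 4265 and 2369.7 with rIL-4 and 2015, 6549 and 2684 with rIL-13. The rIL-4 libraries lay below PBS and the rIL-13 libraries overlapped it. Its log2 fold changes were -0.78 ± 0.40 and -0.53 ± 0.40, neither past the test. With 1 library left out the rIL-13 value ranged from -1.19 (without rIL-13 mouse 6, edgeR adjusted p 0.0541) to -0.23. The highest rIL-13 library for Gsr, that of mouse 6, also had the highest sum of neutrophil markers of all macrophage libraries (2755 CPM, against 498 and 504 CPM in mice 5 and 7). The part of that in the level was not tested.

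Nqo1, a quinone reductase and the usual readout of NRF2 activity, was the member with the lowest counts. It had 51 to 84 estimated counts in PBS macrophages, 19 to 30 in rIL-4 macrophages and 22 to 47 in rIL-13 macrophages. As normalized counts these were 59.8, 98.8 and 55.7, 21.2, 18.7 and 28.5 and 28.3, 53.2 and 29.3. All treated libraries lay below PBS. The log2 fold change was -1.59 ± 0.44 with rIL-4 (edgeR adjusted p 0.039) and -0.92 ± 0.44 with rIL-13 (edgeR adjusted p 0.307). The rIL-4 call was lost without any PBS library, without any rIL-4 library and without rIL-13 replicate 7, with adjusted p from 0.0516 to 0.152. It was also lost with no filter on low counts (0.0572) and in the model of all 18 libraries (0.423), where the Gclm call was lost as well (0.0759).

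Cat was at 3962, 4267 and 4308 in PBS macrophages, 3321, 2569 and 2768 with rIL-4 and 3400.4, 2397 and 3116 with rIL-13. Both cytokine groups lay below PBS, by log2 fold changes of -0.48 ± 0.16 (edgeR adjusted p 0.0692) and -0.46 ± 0.16 (edgeR adjusted p 0.151). Sod2, the mitochondrial superoxide dismutase, was at 3900.1, 4348 and 4095, 4376, 4555 and 4322 and 4109.9, 4201 and 4176. Both cytokine groups overlapped with PBS, and the rIL-4 libraries all lay above the rIL-13 libraries. Its log2 fold changes of 0.15 ± 0.11 and 0.05 ± 0.11 did not pass the test. Cat and Sod2 had the smallest spread of the members in PBS macrophages, with SDs of 4.52% and 5.45% of the mean.

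With rIL-13 in macrophages none of the 10 members passed by edgeR, where 4.19% of 13606 genes did. At an unadjusted p under 0.05, 6 of the 10 members did with rIL-13 and 6 with rIL-4, against 2433 and 3798 of all genes tested. DESeq2 called 4 with rIL-13 (Slc7a11, Gclm, Prdx1 and Txnrd1, all lower) and 5 with rIL-4 (the 3 named above, Cat and Slc7a11), where it called 7.47% and 15.9% of all genes given an adjusted p. For 8 of the members the rIL-13 and PBS macrophages did not overlap, where 24.3% of all genes showed no overlap. The median log2 fold change of the members was -0.64 with rIL-13. Both comparisons share the 3 PBS libraries. In the same macrophage libraries the sum of 10 dissociation and immediate early genes was 3863 to 4167 CPM with PBS, 2402 to 3190 CPM with rIL-4 and 1829 to 3775 CPM with rIL-13, so this list moved with the treatment as well, and its part in the member values was not tested. The sum of microglia markers in the macrophage libraries moved too, from 2647 to 4104 CPM with PBS to 451 to 847 CPM with rIL-4 and 1034 to 2011 CPM with rIL-13. So did the endothelial markers, at 43.1 to 52.8 CPM with PBS, 198 to 389 CPM with rIL-4 and 111 to 188 CPM with rIL-13, and the astrocyte markers (8 genes), at 20.7 to 27.3, 63.8 to 462 and 53.1 to 349 CPM. The oligodendrocyte markers (8 genes) went the other way, at 169 to 202, 117 to 131 and 115 to 122 CPM. With rIL-4 alone, the neutrophil markers (982 to 1498 CPM with PBS, 254 to 832 CPM), the fibroblast and pericyte markers (11.1 to 24.5 CPM with PBS, 2.67 to 4.38 CPM) and the mitochondrial transcripts (5321 to 7449 CPM with PBS, 8364 to 14135 CPM) stood apart from PBS without overlap, as did 8 lymphocyte markers at under 5 CPM. The part of these lists in the member values was not tested.

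**Figure D2:**
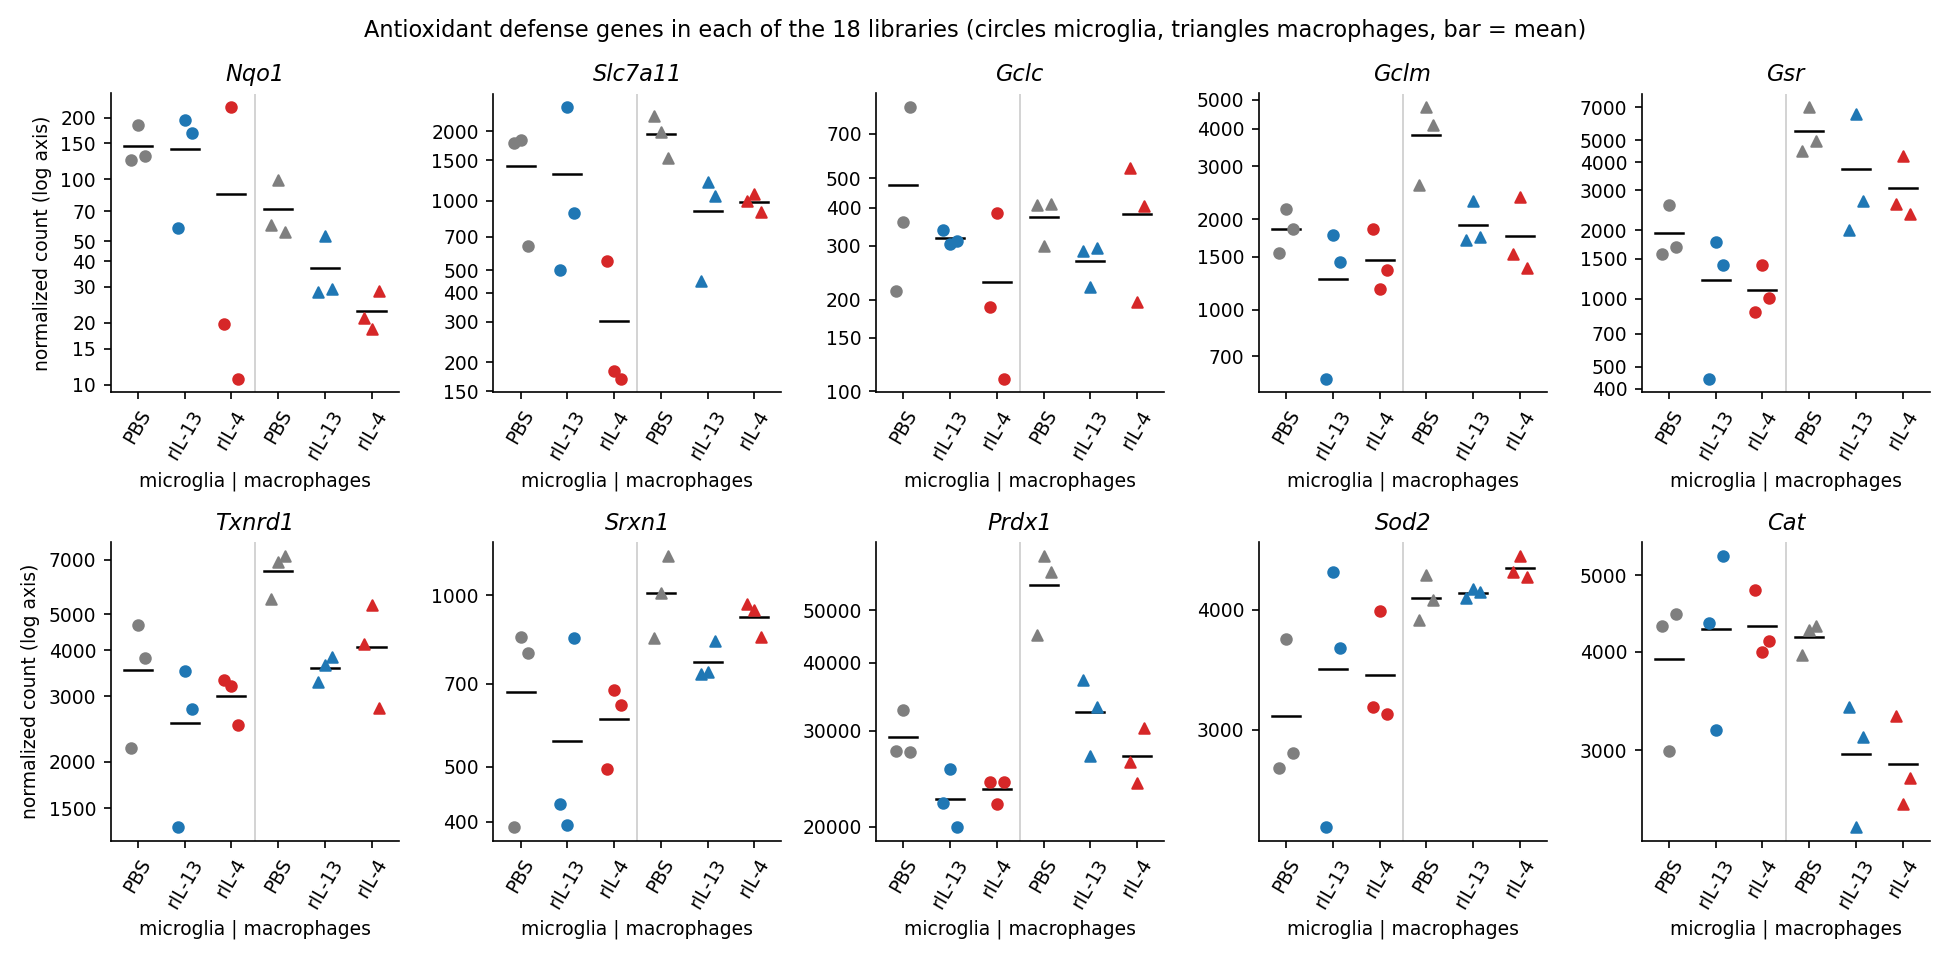
Normalized counts of each member in each library on a log axis, with 1 panel per gene, microglia on the left as circles, macrophages on the right as triangles and the mean of 3 libraries as a bar. In macrophages the PBS libraries of Prdx1, Gclm, Txnrd1, Slc7a11, Nqo1 and Cat all sit above the rIL-13 and rIL-4 libraries, and in rIL-4 microglia Nqo1 runs from 10.7 to 225.

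In microglia none of the 10 members passed with rIL-4 by edgeR, where 2.22% of 15566 genes did, and none with rIL-13, where 0.366% did. At an unadjusted p under 0.05 there was 1 member in each comparison, Slc7a11 with rIL-4 and Prdx1 with rIL-13, against 2553 and 1208 of 15566 genes. DESeq2 called Slc7a11 with rIL-4 and no member with rIL-13, where it called 9.49% and 2.66% of all genes. The median log2 fold change of the members was -0.29 with rIL-4 and -0.32 with rIL-13, against -0.06 and -0.00 over all genes tested. The microglia and PBS groups did not overlap for 3 members with rIL-4 (Slc7a11, Prdx1 and Gsr, all lower), where 26.0% of all genes showed no overlap, and for 1 with rIL-13 (Prdx1, lower), where 16.1% did.

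Slc7a11 showed the widest difference. It was at 1778, 1829 and 638 in PBS microglia, 550.2, 184 and 169.9 in rIL-4 microglia and 501, 2549 and 889 in rIL-13 microglia. The rIL-4 libraries lay below all PBS libraries, the highest of them only slightly, while the rIL-13 libraries spanned the PBS range. With rIL-4 the log2 fold change was -2.19 ± 0.70 with an adjusted p of 0.16 by edgeR. DESeq2 gave the same size with an adjusted p of 0.0182, and the fit of all 18 libraries gave 0.0362. With 1 library left out the value ranged from -2.96 (without rIL-4 mouse 8) to -1.91, and edgeR called it in 0 of these 9 fits. With rIL-13 it was -0.12 ± 0.66. The sum of fibroblast and pericyte markers also stood lower with rIL-4, at 249 to 1600 CPM against 2886 to 4403 CPM with PBS, and the highest Slc7a11 of all microglia libraries (2549, rIL-13 mouse 6) came with the highest of these sums (9745 CPM). The microglia markers were lower with rIL-4 as well, at 3031 to 4558 CPM against 7697 to 13088 CPM with PBS. Also without overlap were the neutrophil markers (119 to 179 CPM with rIL-4, 197 to 274 CPM with PBS), the neuron markers (7 genes, 6.04 to 10.6 and 14.4 to 29.9 CPM) and the dissociation and immediate early genes (533 to 851 and 1117 to 1351 CPM), all lower, and the mitochondrial transcripts given above, higher. The part of these lists in the Slc7a11 values was not tested.

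Prdx1 was at 27576, 32729 and 27500.2 in PBS microglia, 24139, 22012 and 24138 with rIL-4 and 22080.0, 25528 and 19968 with rIL-13. Both cytokine groups lay below PBS by a small step, with log2 fold changes of -0.28 ± 0.13 (edgeR adjusted p 0.329) and -0.37 ± 0.13 (edgeR adjusted p 0.529). With rIL-13 the dissociation and immediate early genes (628 to 756 CPM) and the oligodendrocyte markers (196 to 265 CPM, against 340 to 461 CPM with PBS) also lay below PBS without overlap, and the mitochondrial transcripts above it. Their part in the Prdx1 values was not tested. Gsr was at 1572, 2591 and 1684 with PBS, 873, 1407 and 1009 with rIL-4 and 443, 1773 and 1407 with rIL-13. The rIL-4 libraries lay below PBS and the rIL-13 libraries overlapped it, and the log2 fold changes were -0.79 ± 0.44 and -0.69 ± 0.44, neither past the test.

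Nqo1 had the widest spread of the members in rIL-4 microglia. It was at 124, 185 and 129.9 with PBS, at 19.8, 225 and 10.7 in mice 8, 9 and 10 with rIL-4, and at 58, 195 and 167 with rIL-13. The rIL-4 group held both the lowest and the highest Nqo1 library of all microglia, so that its SD of 121 exceeded its mean of 85.2. Its log2 fold changes were -0.74 ± 1.09 with rIL-4 and -0.06 ± 1.08 with rIL-13. The rIL-4 value was -3.21 without mouse 9, -0.27 without mouse 8 and -0.22 without mouse 10, none past the test. In mice 8, 9 and 10 the fibroblast and pericyte markers summed to 1600, 1124 and 249 CPM and the endothelial markers to 2173, 3384 and 2189 CPM, so that the library high in Nqo1 was also the highest of its group in endothelial markers. The sort on CD45, CD11b and F4/80, proteins of myeloid cells, is meant to leave fibroblasts, pericytes and endothelium out. The part of these cells in the Nqo1 level was not tested.

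The remaining members overlapped with PBS in microglia under both cytokines. Gclm had log2 fold changes of -0.30 ± 0.36 with rIL-4 and -0.55 ± 0.36 with rIL-13, and Gclc of -1.03 ± 0.60 and -0.58 ± 0.60. The Gclc values were -0.28 and 0.17 without PBS mouse 3, and that with rIL-4 was -1.64 without rIL-4 mouse 9, none past the test. Txnrd1 was at -0.20 ± 0.36 and -0.48 ± 0.36, and Srxn1 at -0.12 ± 0.40 and -0.27 ± 0.40. The 2 members of superoxide and hydrogen peroxide removal had small positive values, 0.18 ± 0.23 and 0.16 ± 0.23 for Sod2 and 0.17 ± 0.23 and 0.14 ± 0.23 for Cat. Several of these changed sign when a library was left out.

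**Figure D3:**
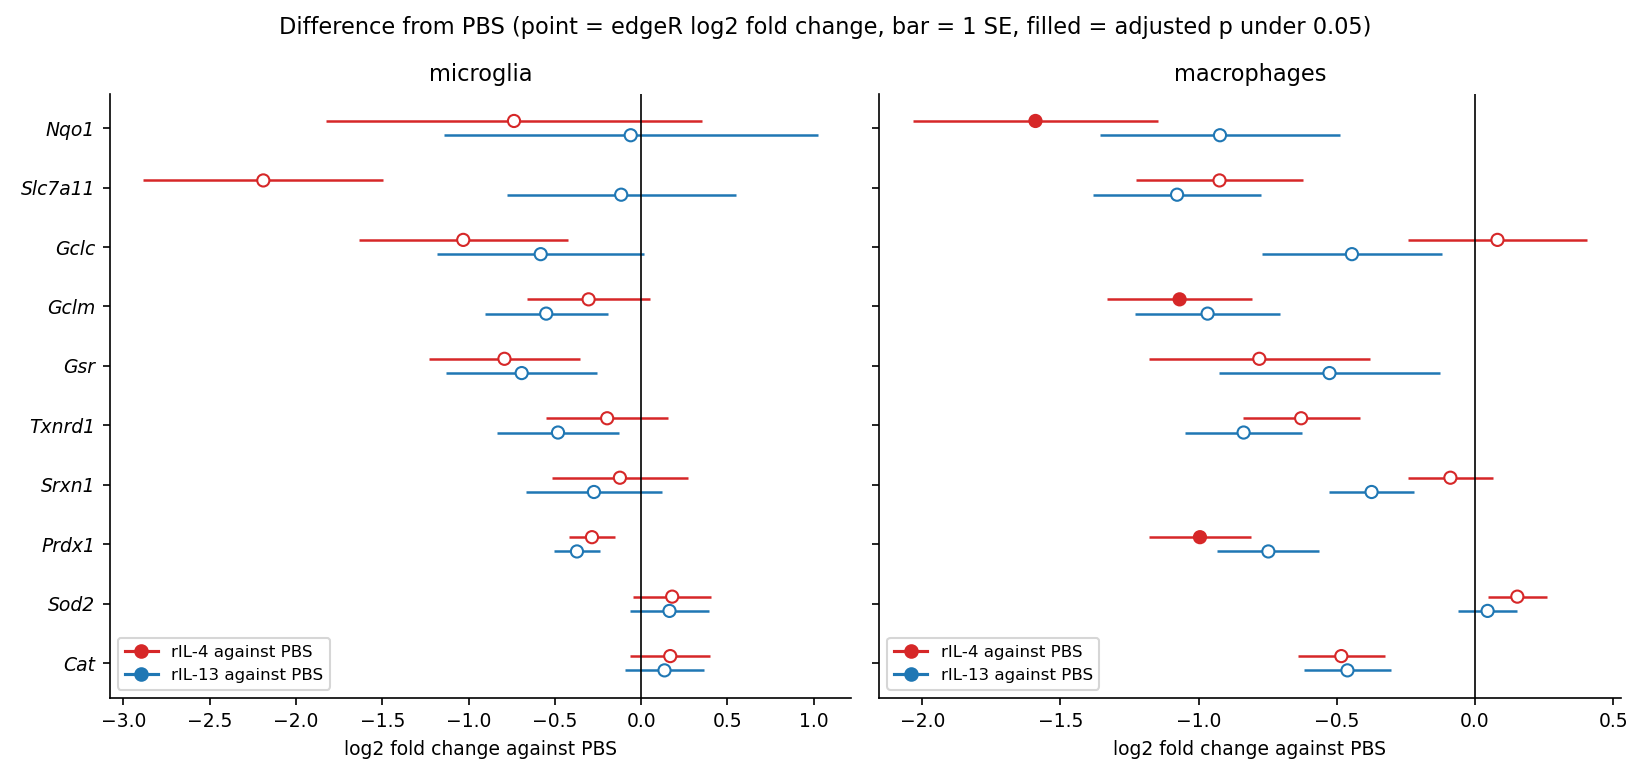
Log2 fold change of each member against PBS by edgeR, in microglia on the left and macrophages on the right, with rIL-4 in red and rIL-13 in blue and bars of 1 SE. The 3 filled points, Nqo1, Gclm and Prdx1 with rIL-4 in macrophages, are those past the threshold.

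The cytokines were also compared with each other. By edgeR no member passed for rIL-4 over rIL-13, in microglia (where 0.0385% of 15566 genes passed) or in macrophages (where 0.250% of 13606 did). At an unadjusted p under 0.05 there was 1 member in microglia, Slc7a11, and 0 in macrophages, against 1773 of 15566 and 1513 of 13606 genes. DESeq2 called Slc7a11 in microglia (adjusted p 0.0454) and none in macrophages, where it called 4.76% and 2.61% of all genes. The log2 fold change of Slc7a11 in microglia was -2.07 ± 0.69, lower with rIL-4, with overlapping libraries. It was -1.19 when mouse 6 (rIL-13) was left out and -2.84 when mouse 8 (rIL-4) was, and edgeR called it in none of the 9 fits that left out 1 library. Nqo1 in microglia stood at -0.68 ± 1.09, and ranged from -3.14 to -0.16 with 1 library left out. In macrophages Srxn1 and Sod2 stood at 0.29 ± 0.16 and 0.11 ± 0.11. A value short of the threshold does not show that the cytokines act alike on these genes.

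Whether the response to a cytokine differed between microglia and macrophages was tested as an interaction over the 18 libraries. No member passed by edgeR for rIL-4 against PBS, where 0.992% of 16535 genes did, for rIL-13 against PBS, where 0.0242% did, or for rIL-4 against rIL-13, where 0.139% did. At an unadjusted p under 0.05 there were 2, 0 and 1 members, against 2050, 964 and 1654 of 16535 genes. DESeq2 called 1, 0 and 0 members, against 4.66%, 1.10% and 2.07% of all genes. For rIL-4 against PBS the difference was nearest for Prdx1, which stood 0.69 ± 0.23 on the log2 scale less lowered in microglia (edgeR adjusted p 0.196, DESeq2 adjusted p 0.0373). For Cat the difference was 0.63 ± 0.28 (edgeR adjusted p 0.37) and for Slc7a11 -1.29 ± 0.79. So the calls in macrophages and their absence in microglia are not shown to be a difference between the cell types.

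Between the cell types under PBS, 5 of the 10 members passed by edgeR, all lower in microglia, where 40.9% of 14715 genes passed in either direction and 16.3% passed as lower in microglia. The members' median log2 fold change, microglia over macrophages, was -0.58, against 0.04 over all genes tested. Groups did not overlap for 6 members, where 54.0% of all genes showed no overlap.

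Gsr differed most among the 5. Its 3 PBS microglia libraries, at 1572, 2591 and 1684, lay well below the 3 PBS macrophage libraries, at 4473, 7003 and 4976. The log2 fold change was -1.55 ± 0.23 with an adjusted p of 0.000886 by edgeR, which is a factor of 2.94. Prdx1 had a log2 fold change of -0.99 ± 0.15 (edgeR adjusted p 0.000839) and Gclm of -1.10 ± 0.23 (edgeR adjusted p 0.00444), factors of 1.98 and 2.15. Gclm was at 1545, 2162 and 1852 in PBS microglia, all below the PBS macrophages, as were the Prdx1 libraries. Txnrd1 was at 2173, 4662 and 3801 in PBS microglia, all below the macrophages, with a log2 fold change of -0.94 ± 0.25 (edgeR adjusted p 0.017).

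Sod2 was at 2734, 3727 and 2839 in PBS microglia, each below the lowest macrophage library, with a log2 fold change of -0.47 ± 0.14 (edgeR adjusted p 0.0287). Without mouse 3 the calls of Gclm, Txnrd1 and Sod2 were lost (adjusted p 0.0506, 0.0973 and 0.179), leaving 2 of 5, and without mouse 1 that of Sod2 (adjusted p 0.0847). Srxn1 was at 391, 846 and 792 in PBS microglia, with 1 of them above the lowest PBS macrophage library. Its log2 fold change of -0.64 ± 0.29 missed the threshold (adjusted p 0.117 by edgeR), and it passed with the mouse as a replicate block (adjusted p 0.0341). Nqo1 went the other way, with all PBS microglia libraries above all PBS macrophage libraries and a log2 fold change of 0.97 ± 0.43 that missed the threshold (adjusted p 0.107 by edgeR).

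Slc7a11 (-0.53 ± 0.36), Gclc (0.30 ± 0.46) and Cat (-0.15 ± 0.17) overlapped between the cell types under PBS and did not pass. In PBS microglia Gclc was at 214, 359 and 856 and Cat at 4309.8, 2994 and 4461. The neutrophil markers were lower in PBS microglia (197 to 274 CPM) than in PBS macrophages (982 to 1498 CPM), and the dissociation and immediate early genes were at 1117 to 1351 CPM against 3863 to 4167 CPM. The fibroblast and pericyte markers, as given above, summed to at most 24.5 CPM in any macrophage library. The mitochondrial transcripts were at 21781 to 30064 CPM in PBS microglia and 5321 to 7449 CPM in PBS macrophages, at 63545 to 121915 against 8364 to 14135 CPM under rIL-4, and at 32771 to 35285 against 6035 to 7129 CPM under rIL-13. Markers of endothelium, oligodendrocytes and neurons were also higher in microglia without overlap under all 3 treatments. Under PBS so were the astrocyte markers (138 to 268 CPM against 20.7 to 27.3 CPM) and the lymphocyte markers (at least 6.69 CPM against at most 4.39 CPM). Under rIL-4 the lymphocyte markers were too (3.06 to 8.75 against 1.93 to 1.98 CPM). Neutrophil markers were also lower in microglia under rIL-4 (119 to 179 against 254 to 832 CPM) and rIL-13 (104 to 357 against 498 to 2755 CPM). So were the dissociation and immediate early genes (533 to 851 against 2402 to 3190 CPM, and 628 to 756 against 1829 to 3775 CPM). The parts of all these lists in the differences between the cell types were not tested.

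Under rIL-4, 3 members passed by edgeR, where 23.4% of 13576 genes did. Slc7a11 was lower in microglia (log2 fold change -1.76 ± 0.48, adjusted p 0.0328), and so was Gsr (-1.54 ± 0.29, adjusted p 0.00758), while Cat was higher (0.54 ± 0.16, adjusted p 0.0444). Cat stood at 4794, 3997 and 4134 in rIL-4 microglia, all above the rIL-4 macrophages. Groups did not overlap for 5 members (these 3, Srxn1 and Sod2), where 41.0% of all genes showed no overlap. Leaving out any 1 of the 3 mice left 1 member called: the adjusted p of Gsr was 0.0528 without mouse 8, that of Slc7a11 was 0.182 without mouse 9 and 0.148 without mouse 10 (its log2 fold change was -2.48 without mouse 8), and that of Cat was 0.067, 0.111 and 0.251 without mice 8, 9 and 10. Cat was also lost with no filter on low counts (0.0944).

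The other members under rIL-4 did not pass. Prdx1 (-0.24 ± 0.15) and Gclm (-0.31 ± 0.27) now overlapped between the cell types, and Srxn1 (-0.64 ± 0.23), Sod2 (-0.41 ± 0.15), Txnrd1 (-0.47 ± 0.24) and Gclc (-0.78 ± 0.57, and -1.66 without mouse 9) had negative values short of the threshold. DESeq2 called 4 members under rIL-4, with Srxn1 (adjusted p 0.0205) beside the 3 above, and the same 5 as edgeR under PBS, against 29.0% and 40.1% of all genes. The value of Nqo1, 1.85 ± 1.21, rested on mouse 9 and turned to -0.70 without it.

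Under rIL-13 no member passed by edgeR, where 26.7% of 13906 genes did. At an unadjusted p under 0.05 there were 3, Gsr (-1.66 ± 0.59), Prdx1 (-0.56 ± 0.19) and Nqo1 (1.89 ± 0.68), against 5251 of 13906 genes. DESeq2 also called these 3, against 31.7% of all genes. With the mouse as a replicate block Gsr was called (adjusted p 0.00896), and without mouse 6 Prdx1 was (adjusted p 0.0215). Groups did not overlap for 4 members, where 44.8% of all genes showed no overlap. These were Gsr and Prdx1, lower in microglia, and Nqo1 and Gclc (0.21 ± 0.32), higher. The values of the others were 0.50 ± 0.24 for Cat, 0.50 ± 0.61 for Slc7a11, -0.49 ± 0.34 for Srxn1, -0.63 ± 0.38 for Gclm, -0.53 ± 0.32 for Txnrd1 and -0.30 ± 0.23 for Sod2.

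**Figure D4:**
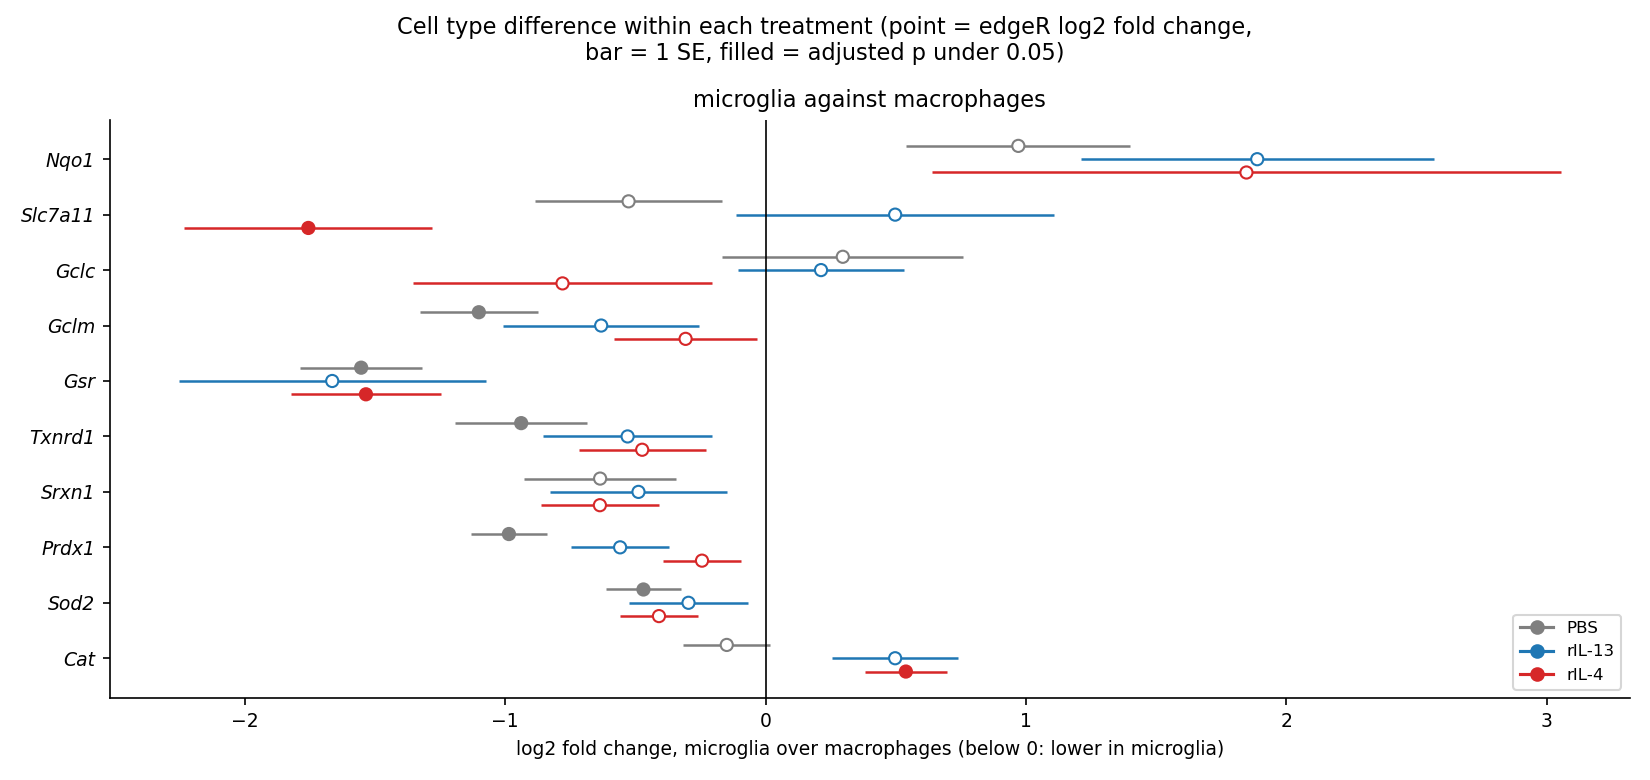
Log2 fold change of each member in microglia over macrophages by edgeR, under PBS (grey), rIL-13 (blue) and rIL-4 (red), with bars of 1 SE and filled points past the threshold. Gsr stands between -1.66 and -1.54 under all 3 treatments, and Nqo1 lies right of 0 with wide bars.

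The members were set beside 67 other genes of the same pathways, listed by role: NRF2 and its regulators, NADPH supply, other glutathione genes, glutathione peroxidases and transferases, thioredoxins and peroxiredoxins, superoxide dismutases and other NRF2 targets. With rIL-4 in macrophages 19 of 64 tested passed by edgeR, 6 higher and 13 lower, where 14.0% of all genes passed and 7.20% passed as lower. The median log2 fold change over the 64 was -0.09, against 0.02 over all genes. The 8 with the lowest p were the iron storage chain Fth1 (-1.49 ± 0.23), the cytosolic dismutase Sod1 (-1.46 ± 0.24), the secreted peroxidase Gpx3 (-1.59 ± 0.27), the heme oxygenase Hmox1 (-1.14 ± 0.19), Prdx6 (-1.21 ± 0.21), Prdx2 (0.75 ± 0.13), the NADPH-forming isocitrate dehydrogenase Idh1 (1.12 ± 0.21) and the biliverdin reductase Blvrb (-0.93 ± 0.18). Their adjusted p ran from 0.00212 to 0.00726.

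By list, and against the 14.0% of all genes, 4 of 11 other NRF2 targets were lower and none higher. Of 10 other thioredoxins and peroxiredoxins, Prdx2 and Prdx3 were higher and Prdx6 was lower, where the member Prdx1 was lower. Of 14 glutathione transferases and glutaredoxins, 3 were higher and 3 lower. Of 9 genes for NRF2 and its regulators 2 were lower and none higher, and their median log2 fold change was 0.06. Nfe2l2 itself was lower (log2 fold change -0.54 ± 0.16, edgeR adjusted p 0.048), as was Slc3a2, which forms the cystine importer with Slc7a11 (-0.52 ± 0.13, edgeR adjusted p 0.0282). Keap1, which marks NRF2 for degradation, was at 0.27 ± 0.15 and did not pass. The 19 calls became 10 to 12 without any 1 of the PBS libraries or rIL-4 replicates 9 or 10, and 11 in the model of all 18 libraries. Prdx3, Nfe2l2, Slc3a2 and Keap1 were named after their values were seen.

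**Figure D5:**
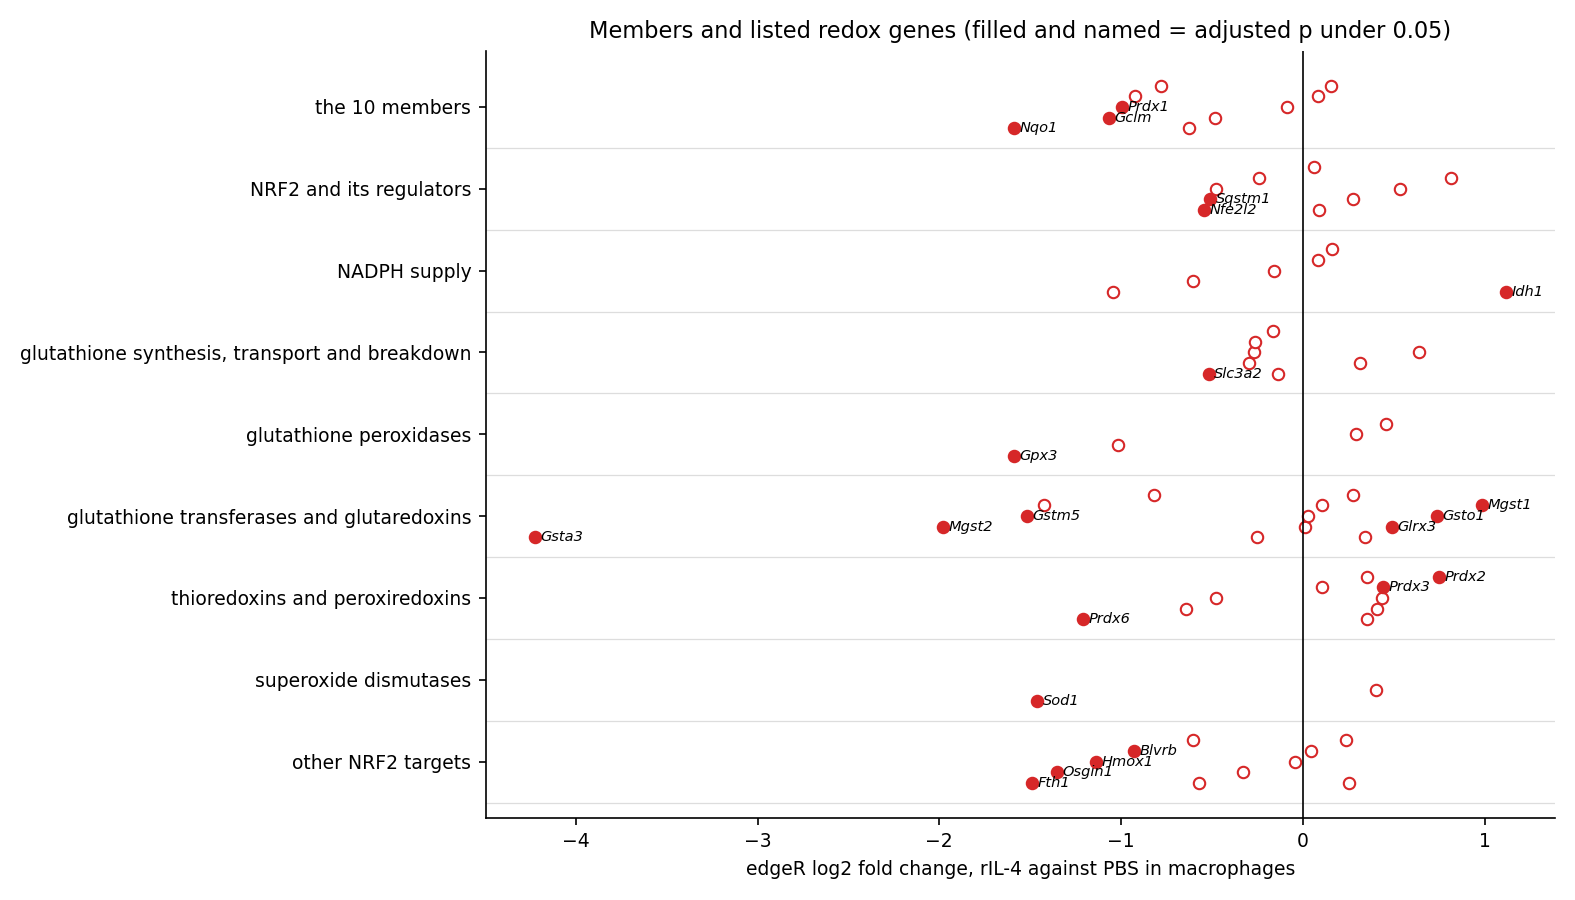
Log2 fold change by edgeR for rIL-4 against PBS in macrophages, for the 10 members on top and the other pathway genes by list below. Filled, named points are past the threshold, 3 of 10 members and 19 of 64 others, and the leftmost of them, Gsta3, had at most 3 counts in any rIL-4 macrophage library, so its position is set by the model and is no measured fold.

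With rIL-13 in macrophages 5 of 64 passed, where 4.19% of all genes did. These were Prdx2 (0.65 ± 0.13), Mgst1 (1.12 ± 0.26) and Idh1 (0.85 ± 0.21), higher, and Gpx3 (-1.17 ± 0.26) and Sod1 (-1.01 ± 0.24), lower. In microglia with rIL-4 there were 3 of 66, where 2.22% of all genes passed. These were Gsto1 (0.98 ± 0.13) and Idh1 (1.24 ± 0.21), higher, and Sod1 (-0.71 ± 0.13), lower. These counts moved with the fit. In rIL-4 microglia DESeq2 called 11, where it called 9.49% of all genes, and edgeR with no filter called 2 (both higher). There edgeR called 0 without PBS replicates 1 or 3 and 1 without PBS replicate 2 or rIL-4 replicate 10. In rIL-13 macrophages DESeq2 called 9, where it called 7.47% of all genes. There edgeR called 0 without PBS replicates 2 or 3 and 1 without PBS replicate 1, rIL-13 replicates 5 or 7 or rIL-4 replicate 10. With rIL-13 in microglia and between the cytokines in either cell type none passed by edgeR. At an unadjusted p under 0.05 these 3 comparisons held 15 of 66 genes for rIL-13 in microglia, where 1208 of all 15566 genes passed. Between the cytokines they held 12 of 66 in microglia, where 1773 of 15566 passed, and 8 of 64 in macrophages, where 1513 of 13606 passed. DESeq2 called 6, 3 and 1, where it called 2.66%, 4.76% and 2.61% of all genes.

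Between the cell types under PBS 41 of 67 passed, 13 higher and 28 lower in microglia, where 40.9% of all genes passed and 16.3% passed as lower. The 8 with the lowest p fell into 2 kinds. Lower in microglia were the methionine sulfoxide reductase Msrb1 (-3.33 ± 0.25), the ferritin chain Ftl1 (-1.44 ± 0.11), the glutathione conjugate exporter Abcc1 (-2.26 ± 0.19) and Prdx6 (-2.31 ± 0.21). Higher in microglia were the extracellular dismutase Sod3, Gsta4, Gpx8 and Gstm5 (2.02 ± 0.19). Sod3 had 2 to 8 estimated counts in the PBS macrophage libraries and 1817 to 4728 in PBS microglia, and Gsta4 had 3 to 16 and 743 to 1582. Gpx8 had at most 1 in any PBS macrophage library. It was at least 219-fold higher in PBS microglia, against a floor of 3 counts per library. These are the libraries that also held fibroblast, pericyte and endothelial markers, whose part in these 4 genes was not tested. Under rIL-4, 22 of 66 pathway genes passed between the cell types (8 higher and 14 lower in microglia), where 23.4% of all genes did. Under rIL-13, 25 of 66 did (10 higher and 15 lower), where 26.7% of all genes did. The 22 became 11 without mouse 8 and 12 without mouse 10, and the 25 became 10 without mouse 7.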

How the data were processed

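Poly(A)-primed libraries made without molecular identifiers (SMART-seq2) were sequenced from sorted cells. Per the labels and methods, the authors aligned reads with STAR 2.5.3a and estimated gene counts with RSEM 1.3.0, and the deposited expected counts were used here, rounded to whole numbers. Gene IDs were matched to GENCODE vM21 (GRCm38), which holds 53274 of the 53465. The 10 members and all lists were chosen with earlier results of these data known. All 10 members were named, and of the pathway lists the passing genes, up to 8 by lowest p. edgeR 4.0.16 (TMM, filterByExpr, quasi-likelihood test, SE as the log2 fold change over the root of F) was fitted per cell type over 9 libraries, per treatment over 6 and over all 18 for interactions. Only the fit of rIL-4 against PBS in microglia was tested on simulated data, whose set changes were larger than most reported here. Normalized counts are counts over DESeq2 size factors of the 18 libraries. Alternatives were DESeq2 1.42.0, its size factors in edgeR, no filter, a model of all 18 libraries, the mouse as a replicate block and leaving out libraries. Both cell types of a mouse carry its number in the labels, which gives the pairing, and deviations of paired libraries correlated at 0.018 to 0.093 over genes. Library totals were 35961305 to 45849829, and the members with the lowest counts were Nqo1 (from 10 counts), Gclc (from 103) and Slc7a11 (from 159).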

Additional observations from a re-analysis of the deposited data

Results flagged for a closer look

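Cat is given here because all 3 rIL-4 microglia libraries lay above the PBS microglia mean on the log scale, while all 3 rIL-4 macrophage libraries lay below the PBS macrophage mean. The difference between the 2 responses, tested as an interaction over the 18 libraries, was 0.63 on the log2 scale (SE 0.28, unadjusted p 0.0402) with an adjusted p of 0.37 by edgeR, so it failed the correction over all genes. In microglia alone the difference from PBS was 0.17 ± 0.23 with overlapping libraries.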

How the results depend on the processing

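Members called moved from 0 to 1 under DESeq2 and in the model of all 18 libraries for rIL-4 against PBS in microglia, and from 0 to 1 under DESeq2 for rIL-4 against rIL-13 in microglia and for the interaction of rIL-4 against PBS. For rIL-4 against PBS in macrophages, 3 became 5 under DESeq2, 4 with no filter on low counts (Nqo1 lost, Slc7a11 and Txnrd1 gained), 1 in the model of all 18 libraries (Gclm and Nqo1 lost) and 1 to 5 with a library left out (1 without PBS replicates 2 or 3 or rIL-4 replicates 8 or 10, 5 without rIL-13 replicate 6). For rIL-13 against PBS in macrophages, 0 became 4 under DESeq2, 4 with no filter on low counts, 1 with DESeq2 size factors, 1 in the model of all 18 libraries and 0 to 2 with a library left out. Between the cell types, leaving out a mouse gave 2 to 5 under PBS (main 5), 1 under rIL-4 (main 3) and 0 to 1 under rIL-13 (main 0). DESeq2 gave 5, 4 and 3, and no filter 5, 2 (Cat lost) and 0. The mouse as a replicate block gave 6 under PBS, 3 under rIL-4 and 1 under rIL-13, and left the 3 interactions at 0. Within a cell type each mouse gives 1 library, so no block could be fitted there. The cause was not tested.

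Over all genes, the calls under edgeR and DESeq2 were 345 and 1478 (rIL-4 against PBS, microglia), 57 and 414 (rIL-13 against PBS, microglia), 6 and 741 (rIL-4 against rIL-13, microglia), 1900 and 2571 (rIL-4 against PBS, macrophages), 570 and 1111 (rIL-13 against PBS, macrophages), 34 and 399 (rIL-4 against rIL-13, macrophages) and 164 and 775, 4 and 183, and 23 and 362 (interactions). In the model of all 18 libraries they were 949, 172, 138, 1053, 257 and 70 for the first 6 of these. With no filter rIL-4 against rIL-13 in macrophages had 209, and with the replicate block the last interaction had 6.

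Among the printed log2 fold changes of the members, signs turned only for those short of the threshold. With a library left out, rIL-4 against PBS ranged in microglia from -0.45 to 0.037 for Txnrd1 and -0.40 to 0.057 for Srxn1, and in macrophages from -0.24 to 0.38 for Gclc and -0.22 to 0.033 for Srxn1. For rIL-13 against PBS in microglia the ranges were -0.35 to 0.30 for Nqo1, -0.998 to 0.27 for Slc7a11, -0.93 to 0.17 for Gclc, -0.017 to 0.37 for Sod2 and -0.053 to 0.32 for Cat, and in macrophages -0.014 to 0.097 for Sod2. Between the cell types they were -0.39 to 0.69 for Gclc and -0.29 to 0.0017 for Cat under PBS, -0.70 to 2.56 for Nqo1 and -0.57 to 0.14 for Gclm under rIL-4, and -0.16 to 0.83 for Slc7a11 under rIL-13. The Nqo1 interaction for rIL-4 against PBS (0.82) ranged from -1.76 without mouse 9 to 1.55, and was -0.52 with the replicate block. Of 833 alternative values for the 78 log2 fold changes of the members that are printed here (all members against PBS and between the cell types, 4 between the cytokines and 4 interactions), 24 turned sign with a library left out and 1 with the replicate block. Those not printed are not in this count. With 10 to 294 counts per library, Nqo1 had the lowest counts of the members.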
